A study of Homo sapiens with 8 samples.

Results

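Nestin (NES), cadherin 19 (CDH19), the transcription factor AP-2 beta (TFAP2B) and the transcriptional coactivator EYA1 each had a lower average signal in A375 human melanoma cells in which doxycycline induced an shRNA against PLK1 (shPLK1) than in A375 cells with a nonsense shRNA (shNS). TFAP2B had the largest difference of the 4 genes, at 6.02-fold lower in shPLK1, followed by NES at 3.86-fold, EYA1 at 3.07-fold and CDH19 at 2.79-fold. The genes are the rows with these symbols in a table of 491 transcript clusters that the authors deposited, which carries 305 gene symbols. Each of the 4 genes has 1 row there, in each case a cluster classed as coding. They were chosen by the same 2 group averages that are given here, so their values are a description with no test. In such bulk RNA, a smaller share of cells that express a gene and less of its RNA per cell cannot be told apart.

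A375 was established from a human melanoma. Both groups are lines of these cells that carry a lentiviral, doxycycline-inducible shRNA vector. Both shPLK1 (4 arrays) and shNS (4 arrays) cells were given doxycycline for 48 h before their total RNA was measured on Affymetrix Human Transcriptome Arrays. The methods describe shNS and shPLK1 lines as stable polyclonal pools selected with puromycin. They name the array cells only as made earlier and do not say whether these are such pools. The methods state 3 replicates per line, whereas the sample labels list 4 arrays per group, all of which were used. The replicates are thus cultures of 1 line per group, so the knockdown and any other difference between the lines cannot be told apart. The labels name several shPLK1 constructs without saying which the arrays used. No cluster of PLK1 is listed, and these data therefore gave no check of the knockdown.

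The neural crest is a transient cell population of the vertebrate embryo that leaves the dorsal neural tube and gives rise to melanocytes, Schwann cells, sensory and autonomic neurons and much of the facial skeleton. In mice and chicks, part of the melanocytes of the skin arises from Schwann cell precursors, the glial progenitors that travel along nerves. Melanoma cells can express genes of both the melanocyte and the neural crest or glial programme. NES encodes an intermediate filament protein of neural progenitors, CDH19 a type II cadherin of Schwann cell precursors, TFAP2B a transcription factor of the AP-2 family that acts in neural crest derivatives, and EYA1 a coactivator and phosphatase that works with DNA-binding transcription factors in placodes and other organ primordia.

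Each transcript cluster gathers the probe sets of a transcribed locus, and its level is the authors' bi-weight average of a group on the log2 scale, printed to 2 decimals. A difference of 2 such averages is therefore exact to about 0.01 log2 units. That table gives no value per array and no spread. Of its 2 average columns, 1 is headed NS and was read as shNS. The other is headed 5d, a name that neither the labels nor the methods explain, and was read as shPLK1 because the series has no other group. If the name stands for days, it does not match the 48 h of doxycycline. In both files the same side carried the largest differences on chromosome 8. There, 1 cluster was lower in 5d by at least 5 log2 units and 0 were higher, and 3 exon probe sets were lower in shPLK1 by that much and 0 were higher. On chromosomes 1, 6 and 18 no cluster differed by that much, so this check rests on chromosome 8. Levels of different genes come from different probes and cannot be compared as amounts of RNA.

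Among the transcription regulators, TFAP2B averaged 4.26 in shPLK1 and 6.85 in shNS, a difference of -2.59 log2 units. The shPLK1 average thus corresponded to 16.6% of the shNS average on the linear scale. It ranked 33 among the 306 lower clusters of the table and 26 among the 207 lower coding clusters, ordered by the size of the decrease. The other 4 members of the AP-2 family (TFAP2A, TFAP2C, TFAP2D and TFAP2E) have no row in the table. EYA1 averaged 5.54 in shPLK1 and 7.16 in shNS, a difference of -1.62 log2 units, or 32.5% of the shNS average. It ranked 124 among the lower clusters, and no other gene of a list of 14 from the same regulatory network, such as EYA2, DACH1 and PAX6, has a row.

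Of the structural and adhesion genes, NES averaged 5.73 in shPLK1 and 7.68 in shNS, a difference of -1.95 log2 units that left 25.9% of the shNS average. It ranked 81 among the lower clusters and was the only row from a list of 15 intermediate filament and lamin genes, which includes vimentin and the neurofilaments and leaves out the keratins. The keratin gene KRT80, named after its value was seen, has a row and went the other way, with 8.55 in shPLK1 and 7.13 in shNS. CDH19 averaged 3.87 in shPLK1 and 5.35 in shNS, a difference of -1.48 log2 units, with 35.8% of the shNS average left. It ranked 149 among the lower clusters and was the only one of a list of 18 cadherins with a row. That list leaves out the protocadherins, of which PCDH7 and PCDH18 were lower (differences of -1.15 and -1.66) and PCDH17 was higher (1.80), all named after their values were seen. Decreases of all clusters listed as lower had a median of -1.47, so that of CDH19 was of ordinary size for this table and those of NES, EYA1 and TFAP2B were larger.

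**Figure D1:**
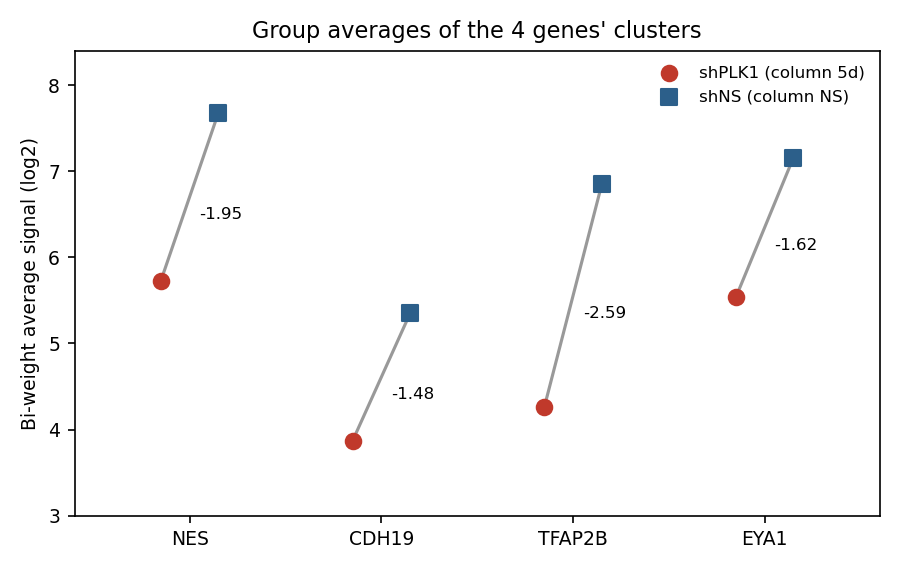
Bi-weight average signal (log2) of the clusters of NES, CDH19, TFAP2B and EYA1 in shPLK1 (circles) and shNS (squares), with the difference shPLK1 minus shNS beside each line. The shPLK1 average lay below the shNS average for each gene, with differences of -1.48 log2 units for CDH19 to -2.59 for TFAP2B; no error bars are drawn because the table holds no spread, and the heights of different genes are not comparable.

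All 4 of the genes were lower in shPLK1, as were 306 of the 491 listed clusters (62.3%). The median difference was -1.79 log2 units over the 4 genes, beside -1.47 over the clusters listed as lower. Over all listed clusters, which mix lower and higher ones, it was -1.12. The table lists clusters with a difference of at least 1.0 log2 unit only, which is a fold of 2.0, and lower clusters prevailed in it among coding (62.5%) and noncoding (61.9%) clusters alike. A gene without a row may have changed less, may have missed the authors' limits or may have no cluster, so a missing row is not a measured lack of change.

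Of 23 neural crest specifier genes, 3 have a row, among them the chosen TFAP2B, and they did not run one way. The share of all genes on the array with a row was not computed. No count of list genes with a row is therefore read as many or few. TFAP2B and SNAI1 were lower and SOX9 was higher. SNAI1, which encodes the repressor SNAIL, averaged 7.51 in shPLK1 and 8.65 in shNS, 2.20-fold lower. SOX9, a transcription factor of neural crest, cartilage and melanocytes, averaged 8.81 in shPLK1 and 7.57 in shNS, 2.36-fold higher. No row carries SOX10, FOXD3, PAX3, TWIST1 or NGFR, which are among the genes most used to define the neural crest.

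Of 17 genes of Schwann cell precursors and glia, 3 have a row, of which CDH19 and ERBB3 were lower and NRG1 was higher. ERBB3, the neuregulin receptor on which Schwann cell precursors depend, averaged 5.52 in shPLK1 and 7.64 in shNS in its coding cluster, 4.35-fold lower, and was also lower in a noncoding cluster, with 3.43 in shPLK1 and 6.20 in shNS. NRG1, which encodes a ligand of that receptor, averaged 7.73 in shPLK1 and 6.04 in shNS, 3.23-fold higher. Receptor and ligand thus lay on opposite sides. Across all 6 lists, which hold 87 genes without repeats, 8 have a row, 6 lower and 2 higher. Without the 4 chosen genes 2 were lower and 2 higher, beside 177 lower and 128 higher among all 305 symbols. Of the Schwann cell and glial markers S100B, MBP, GFAP and CDH19, CDH19 alone has a row, and no neuronal, fibroblast or keratinocyte marker of the lists has a row. Whether the cells carry a glial programme as a whole could not be read from this table.

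**Figure D2:**
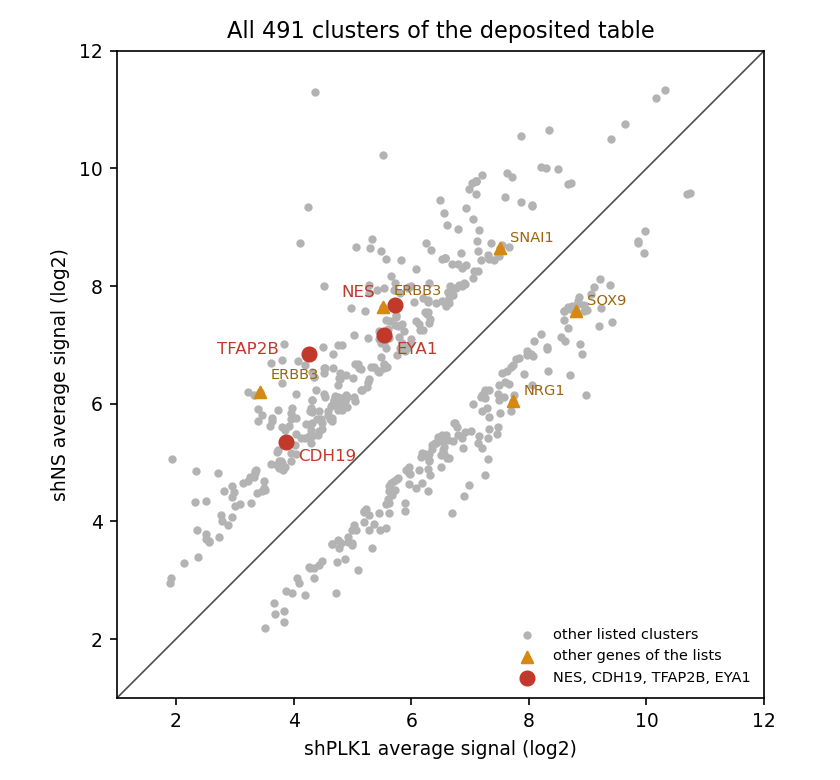
Average signal (log2) in shPLK1 (x axis) and in shNS (y axis) of all 491 listed clusters, with NES, CDH19, TFAP2B and EYA1 as large circles and the other genes of the neural crest and glial lists as triangles; the line marks equal averages. The 4 genes lie above the line, where shNS is higher, with SNAI1 and both clusters of ERBB3, while SOX9 and NRG1 lie below it.

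The listed clusters nearest to each gene over the 2 averages were found among all clusters with a symbol. This measure rests on 2 values per cluster and includes signal levels of different probes, so it describes positions in the table and not amounts of RNA. Nearest to NES were PCSK1, SOX2 and ERBB3, at distances of 0.17 to 0.214 log2 units. SOX2, a transcription factor of neural progenitors, averaged 5.75 in shPLK1 and 7.48 in shNS. Nearest to TFAP2B were a noncoding cluster of ART3, the ephrin receptor gene EPHA7 and the neuronal membrane protein gene SLITRK6, with differences of -2.56, -2.47 and -2.66 log2 units. Nearest to EYA1 were a cluster of HLA-DRB4, a noncoding cluster of ERV9-1 and the adhesion molecule gene CADM1. Other clusters of HLA-DRB4 lay further away, with differences of -3.1 and -3.35 log2 units. Nearest to CDH19 were RNU1-120P, LOC644249 and a noncoding cluster of NOX4.

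The spread between arrays, which the cluster table does not give, was read from the deposited log2 signals of 573909 exon probe sets on the 8 arrays, which carry no gene names. Across exon probe sets, Pearson's r was 0.986 to 0.991 between shPLK1 arrays, 0.988 to 0.991 between shNS arrays and 0.979 to 0.985 between the groups. limma called 12624 of them (2.20%) lower in shPLK1 at a Benjamini-Hochberg adjusted p under 0.05. For each gene, the exon probe sets were taken whose mean signal lay within 0.25 log2 units of the mean of its 2 averages. They are single exons, not the cluster, and the exons of the 4 genes were not identified among them.

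At the level of TFAP2B, the median SD within groups was 0.237 log2 units over 41038 exon probe sets (quartiles 0.182 and 0.302). It was 0.199 over 37344 exon probe sets at the level of NES, 0.210 over 39790 at that of EYA1 and 0.274 over 37199 at that of CDH19. Over the 4 levels, the lower 5% point of the difference lay at -0.47 to -0.44 log2 units and the upper 5% point at 0.43 to 0.48. Since the table lists no cluster with a difference under 1.0 log2 unit, each of the 4 genes had to lie outside these points, and nothing about the genes is read from that.

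Differences at least as negative as that of the gene were found in 81 exon probe sets (0.197%) for TFAP2B, 141 (0.378%) for NES, 254 (0.638%) for EYA1 and 237 (0.637%) for CDH19. Differences of the same size in the other direction were found in 28 (0.0682%), 75 (0.201%), 154 (0.387%) and 142 (0.382%) of them, in the same order of genes. The shares called lower by limma were 2.58% at the level of TFAP2B, 2.90% for NES, 3.03% for EYA1 and 2.07% for CDH19. Over all exon probe sets, which include those of low signal, the share was 2.20%. These are values of single exons and not of the 4 genes. Since the genes were chosen by their differences, the small shares with differences of that size are no test of the genes.

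The array carries 23 background controls, whose mean signals ran from 1.36 to 10.8 with a median of 2.98. The shPLK1 averages of CDH19 and TFAP2B each exceeded 13 of these controls, while in shNS the average of CDH19 exceeded 15 and that of TFAP2B 18. For NES, the shPLK1 average exceeded 16 controls and the shNS average 19, and for EYA1 15 and 18. The averages of these genes thus lay above the median control in both groups but not above all of them, and the folds need not be exact sizes of the RNA change.

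The cluster IDs place NES on chromosome 1, TFAP2B on chromosome 6, EYA1 on chromosome 8 and CDH19 on chromosome 18, as does the RefSeq annotation for each of the 4 symbols. Whole chromosomes differed between the cell lines on these arrays. To measure this, each exon probe set with a mean signal of 7 or more was centred on its mean across the 8 arrays. The shift of a chromosome in an array is the median of these centred values over the chromosome, from which the median over all chromosomes was subtracted. Shifts of 14 of 23 chromosomes (60.9%) passed an adjusted p of 0.05 in limma, so a call alone does not set a chromosome apart.

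For chromosome 18, which holds CDH19, the shift was 0.164, 0.169, 0.180 and 0.2501 in the shPLK1 arrays and -0.233, -0.193, -0.165 and -0.153 in the shNS arrays. All shPLK1 arrays were thus above all shNS arrays, with a difference of 0.38 log2 units (standard error 0.02, adjusted p = 1e-07 from limma). Without the limit of 7 on the mean signal, the difference was 0.17 log2 units (adjusted p = 6.3e-07 from limma), less than with it and of the same sign. CDH19 ran against its chromosome: of the 27 listed clusters with a chromosome 18 ID, 24 were higher and 3 lower, and CDH19 was 1 of the 3. At the level of CDH19, 4 of the 402 exon probe sets with a chromosome 18 ID (0.995%) had a difference at least as negative and 12 (2.99%) one at least as large in the other direction, the reverse of the order over all chromosomes. These are few probe sets, and exons of CDH19 itself may be among them. For chromosome 1, which holds NES, the shift was -0.046 to -0.020 in the shPLK1 arrays and 0.023 to 0.039 in the shNS arrays, a difference of -0.07 (standard error 0.0064, adjusted p = 9.1e-06 from limma), or -0.04 without the limit of 7 (adjusted p = 1.6e-05 from limma). This is in the direction of NES. The 2 sizes are not set against each other, because the table lists no difference under 1.0 log2 unit in size.

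For chromosome 6, which holds TFAP2B, the groups overlapped and the difference was -0.0022 log2 units (adjusted p = 0.83 from limma). For chromosome 8, which holds EYA1, it was -0.016 (standard error 0.005, adjusted p = 0.019 from limma). The adjusted p was 0.061 without shPLK1 replicate 2, 0.067 without shNS replicate 1 and 0.052 without shNS replicate 2. The shift of the chromosome was at most 0.07 log2 units in size for NES, TFAP2B and EYA1 and opposite in sign for CDH19. Its part in the single genes was not tested.

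**Figure D3:**
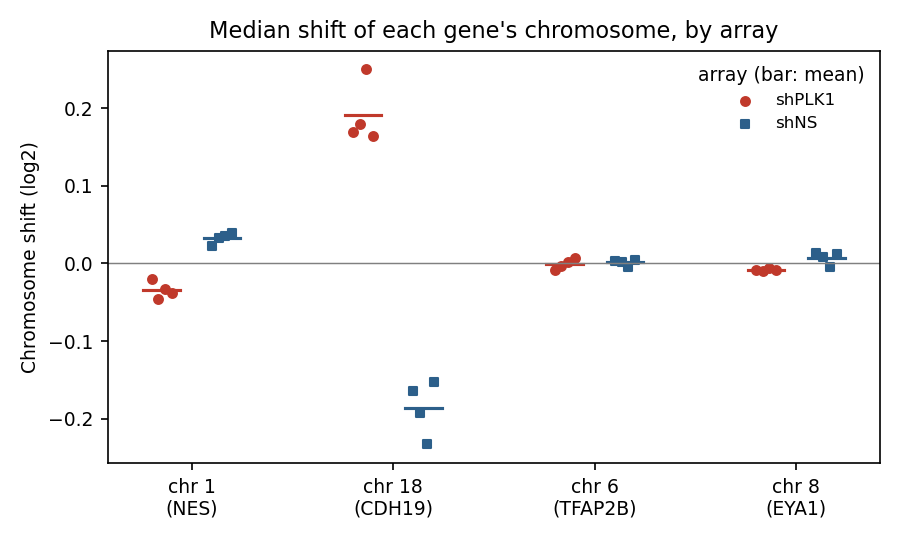
Shift of the chromosome that holds each gene (median of centred log2 signals of 7 or more on average, relative to all chromosomes) in each shPLK1 array (circles) and shNS array (squares), with bars at the group means. The groups lie far apart on chromosome 18, where shPLK1 is higher by 0.38, and within 0.07 log2 units of each other on chromosomes 1, 6 and 8.

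Promoters are shown as a description only, since the 4 genes were chosen by their averages. The RefSeq table used here (GRCh38.p14, 250 bases before to 50 after the gene's start) holds those of 3 genes, NES, TFAP2B and CDH19. They were searched on both strands for these motifs: the AP-2 site GCCNNNGGC, the SOX core ACAAAG, the RBPJ site GTGGGAA and the E-box CAGGTG bound by SNAIL. The 1 match in the 3 promoters is in capitals.
NES, chr1:156677358-156677657, minus strand: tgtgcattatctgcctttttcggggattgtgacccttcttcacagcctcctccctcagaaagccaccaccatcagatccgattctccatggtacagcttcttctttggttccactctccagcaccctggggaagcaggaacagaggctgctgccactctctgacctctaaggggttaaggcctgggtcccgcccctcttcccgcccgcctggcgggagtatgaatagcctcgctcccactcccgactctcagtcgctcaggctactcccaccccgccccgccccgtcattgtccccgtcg
TFAP2B, chr6:50818621-50818920, plus strand: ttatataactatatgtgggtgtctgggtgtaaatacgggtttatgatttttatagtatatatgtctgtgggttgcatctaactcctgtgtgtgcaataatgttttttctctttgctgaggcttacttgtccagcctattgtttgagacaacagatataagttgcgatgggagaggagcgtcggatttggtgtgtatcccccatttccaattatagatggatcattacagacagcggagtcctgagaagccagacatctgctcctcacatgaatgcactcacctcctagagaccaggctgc
CDH19, chr18:66604041-66604340, minus strand: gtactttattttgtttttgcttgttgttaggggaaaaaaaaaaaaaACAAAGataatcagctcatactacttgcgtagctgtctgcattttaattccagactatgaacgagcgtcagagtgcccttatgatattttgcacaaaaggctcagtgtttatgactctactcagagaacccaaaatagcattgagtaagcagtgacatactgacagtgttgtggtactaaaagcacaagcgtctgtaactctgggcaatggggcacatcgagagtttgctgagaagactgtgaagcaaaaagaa

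The match was a SOX core in the promoter of CDH19, on the strand of the gene with its first base at position -204 from the gene's start. This motif occurs in 16.1% of all 35116 promoters of the same length, the AP-2 site in 23.2%, the RBPJ site in 6.25% and the SNAIL E-box in 20.6%. The 3 promoters had no motif of this set in common. Each motif is missing from most promoters, so nothing is read from that. Base composition also differed between the 3, with 60.3% G and C for NES, 43.0% for TFAP2B and 39.3% for CDH19. The median over all promoters was 58.7%. The promoter of NES held 14 CpG dinucleotides, equal to the median of 14, and those of TFAP2B and CDH19 held 5 each.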

How the data were processed

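Signals of 8 Affymetrix Human Transcriptome Arrays (4 shPLK1, 4 shNS, from the sample labels) were used. The authors ran RMA (background correction, quantile normalization and a summary per probe set) in the Transcriptome Analysis Console, and the submitters' notes name RMA too. The deposited log2 values cover exon and junction probe sets without gene names. The authors' deposited table gives log2 bi-weight averages per group for 491 clusters. Its signed fold (a score) and the p-values the authors deposited with it hold their own comparison and were not used. The genome build is not given in the sources used here.

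Differences are shPLK1 minus shNS. limma (3.58.1, in R 4.3.3) used a single group term and was fitted to 573909 exon probe sets and to 23 chromosome shifts, and tested on simulated data. Because the cluster table has no replicates and the probe sets no gene names, the 4 genes had no test. The p-values rest on cultures of 1 line per group and cover their spread only. The number of arrays limits the precision.

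The genes, lists, motifs and the limit of 7 were chosen with earlier results of these data known. Named besides the 4 genes are the 3 nearest clusters of each and every list gene with a row, and 3 genes of the lists are not reported here and were left out of the counts; TRPA1, ZNF521, COLEC12, KRT80 and the protocadherin genes were chosen after their values were seen. Alternatives covered junction probe sets, low signals, centring, repeated rows, the replicate number, the level window, each array left out, cluster kind and promoter length.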

Additional observations from a re-analysis of the deposited data

How the results depend on the processing

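The differences of NES, CDH19, TFAP2B and EYA1 come from 1 cluster per symbol and from deposited averages, so no alternative could move them. Of 194 values recomputed under the alternatives, 188 kept their direction and their side of the threshold, or stayed within 1.5 times (counts and shares) or within the quartiles (SDs). The 188 include values that could hardly move, such as the differences of the 4 genes and counts of list genes with 1 cluster each. Calls were compared as counts, although the settings tested different numbers of exon probe sets. At or above the median mean signal, limma called 12995 of 286955 lower, a larger share than 12624 of 573909 over all. At the level of CDH19, the share of exon probe sets with a difference at least as negative was 0.995% on chromosome 18 alone, resting on 4 probe sets, beside 0.637% on all chromosomes. The shift of chromosome 8 was -0.0157 with the replicate number as a block (adjusted p = 0.083 from limma), and -0.0187 to -0.0132 with 1 array left out. That of chromosome 6 was -0.00597 to 0.000988 with 1 array left out, so its sign is not settled. With the replicate block, limma called 9161 exon probe sets lower and 8077 higher, against 12624 and 11422 without it. Same-numbered arrays did not deviate together (r = -0.145 to 0.0415), and 1 of 8 arrays lay closest to its own number, so the numbers do not pair the arrays. The cause of these changes was not tested. The averages of the 4 genes did not exceed all background controls, so the folds need not be exact sizes of the RNA change.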

Other observations

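Among the 5 protein-coding genes on either side of each gene in the RefSeq order, 1 has a row in the table. The share of all genes with a row was not computed. TRPA1, a cation channel of sensory neurons, lies near EYA1 on chromosome 8 and averaged 2.57 in shPLK1 and 3.67 in shNS, 2.14-fold lower. Its shPLK1 average lay below the median background control of 2.98, so whether the gene was expressed there cannot be read from it. No such neighbour of NES, CDH19 or TFAP2B has a row, although CDH7, another type II cadherin, is the gene next to CDH19 and TFAP2D the gene next to TFAP2B. Besides CDH19, the lower clusters with a chromosome 18 ID were those of ZNF521, a zinc finger transcription regulator, with 3.35 in shPLK1 and 4.85 in shNS, and of COLEC12, a scavenger receptor with a collagen-like stalk, with 5.04 in shPLK1 and 6.68 in shNS. They were 2.83-fold and 3.12-fold lower, close to the 2.79-fold of CDH19, while the chromosome as a whole shifted the other way.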
